A study of Mus musculus with 9 samples.

Results

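The Hox genes are the homeobox genes of 4 chromosomal clusters, Hoxa, Hoxb, Hoxc and Hoxd. All genes whose symbol is Hox, a cluster letter from a to d and a paralog number were taken, which gave 39 of the 24013 gene symbols measured: 11 in Hoxa, 10 in Hoxb, 9 in Hoxc and 9 in Hoxd. They were measured by poly(A) RNA sequencing in beige adipocytes, the inducible thermogenic fat cells, grown and differentiated from stromal vascular cells of inguinal (subcutaneous) fat and taken at day 7. The 3 groups were the inbred strain C57BL/6J (B6, written C57BL6/J in the sample labels), called obesity prone by its authors, the strain 129X1/SvJ (129), called obesity resistant, and F1 offspring, with 3 libraries each. All groups were made alike: confluent cells received isobutylmethylxanthine, indomethacin, dexamethasone, insulin, T3 and rosiglitazone for 48 hours, and then insulin, T3 and rosiglitazone, always with serum. The labels name no deletion or transgene in any group. The labels give no age or sex, nor the direction of the F1 cross, nor whether replicate libraries stem from different animals or dishes. The p-values therefore reflect the spread among libraries, which may be technical.

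Hox proteins are transcription factors that bind DNA through the homeodomain, mostly together with TALE-class partners of the Pbx, Meis and Pknox families. Genes with the same paralog number in different clusters are descended from 1 ancestral gene, and their order along a cluster follows the order of their expression along the head-to-tail axis of the embryo: low numbers (1 to 4, anterior) lie towards the head, numbers 5 to 8 (central) follow, and high numbers (9 to 13, posterior) lie towards the tail. Mesenchymal cells of adult tissues, fat precursors among them, keep a Hox profile typical of the place in the body they came from, also in culture. Active and silent stretches of a cluster are held by Trithorax and Polycomb group proteins, and the clusters also hold non-coding RNAs and microRNAs of the miR-10 and miR-196 families, whose targets include Hox messenger RNAs.

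Depth was 19130022 to 26931438 assigned reads in the B6 libraries, 23710908 to 28473083 in those of 129 and 39686986 to 53410947 in those of F1, so every F1 library was deeper than every parental one. The values were RPKM, reads scaled by exon length and by the library's total of assigned reads, which allow levels to be compared between genes. The 10 mature adipocyte markers summed to 27427 to 31371 RPKM in the B6 libraries, 31465 to 33753 in those of 129 and 35456 to 37758 in those of F1, so the labelled cell type was present in all 9 libraries. The 12 progenitor and fibroblast markers summed to 2892 to 3193 RPKM in the B6 libraries, 4142 to 4405 in those of 129 and 2823 to 3177 in those of F1, and 7 were higher and 1 lower in 129 than in B6 of 11 tested, against 15.9% higher and 21.7% lower of all genes tested. The 9 smooth muscle and pericyte markers summed to 163 to 177 RPKM in the B6 libraries, 148 to 158 in those of 129 and 125 to 131 in those of F1, with 0 higher and 6 lower in 129 than in B6 of 8 tested, against the same shares. Macrophage markers summed to 48.7 to 61.2 RPKM in the B6 libraries, 23.6 to 51.3 in those of 129 and 42.3 to 62.6 in those of F1. Of the 10 macrophage markers, all tested, 0 were higher and 3 lower in 129 than in B6, against the same shares. Endothelial markers summed to 10.0 to 11 RPKM in the B6 libraries, 11.1 to 11.7 in those of 129 and 7.92 to 8.32 in those of F1, and those of Schwann cells and neurons to 9.62 to 12.6 RPKM in the B6 libraries, 5.92 to 6.17 in those of 129 and 6.92 to 7.16 in those of F1. Mesothelial markers summed to 7.92 to 9.13 RPKM in the B6 libraries, 15.8 to 18.1 in those of 129 and 15.7 to 18.3 in those of F1. Of the mesothelial markers, Upk3b, Upk1b, Krt8 and Krt18 were under 0.1 RPKM in every library. The others, Msln, Lrrn4, Wt1 and Krt19, reached 0.1 RPKM in at least 1 library. Of the skeletal muscle markers Myod1, Myf5 and Ckm were at 0 in every library. By their sums, progenitor markers were thus highest in 129, and smooth muscle markers highest in B6, as several Hox genes were. The sum of Schwann cell and neuron markers was also highest in B6, but of the 3 tested 0 were higher and 1 lower in 129 minus B6. The sum of endothelial markers was higher in 129 than in B6, but of the 3 tested 1 was higher and 2 lower. Of the 8 mesothelial markers 1 was tested, Krt19, and it was higher in 129. All these counts stand beside the shares of all genes given above. The part of these cell types in the results for Hox genes was not tested. In bulk RNA, fewer cells of a type and less RNA per cell cannot be told apart.

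At an RPKM above 0.1, 29 of the 39 Hox genes were present in all 9 libraries, and 29 to 31 in any single library. The profile was that of a posterior and central code of the Hoxc, Hoxa and Hoxb clusters. The highest levels were those of Hoxc10, a posterior gene known from work on subcutaneous fat, with 24.6, 26.3 and 24.7 RPKM in B6, 23.7, 22.2 and 21.7 in 129 and 22.4, 21.6 and 21.4 in F1. Hoxc6 followed at 15.7 to 19.7 RPKM over the 9 libraries, then Hoxc8 at 13 to 16.5 and Hoxa9 at 12.5 to 16.8. The ranges of these 3 genes overlapped, while Hoxc10 lay above all of them in every library. Hoxa10 (7.60 to 9.78 RPKM) and Hoxb6 (4.13 to 11.1) were the next in B6. The rank of Hoxb6 differed by group, with a mean of 9.98 ± 1.44 RPKM (SD, n = 3) in B6, 5.66 ± 0.597 in 129 and 4.39 ± 0.236 in F1, beside 6.12 ± 0.761, 5.74 ± 0.171 and 4.92 ± 0.221 for Hoxc9. Over all libraries Hoxc9 was at 4.68 to 6.70 RPKM and Hoxb7 at 3.64 to 5.24. Summed over the 39 genes, the level was 145.6 to 150.6 RPKM in the B6 libraries, 127.0 to 130.1 in those of 129 and 123.4 to 126.4 in those of F1.

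**Figure D1:**
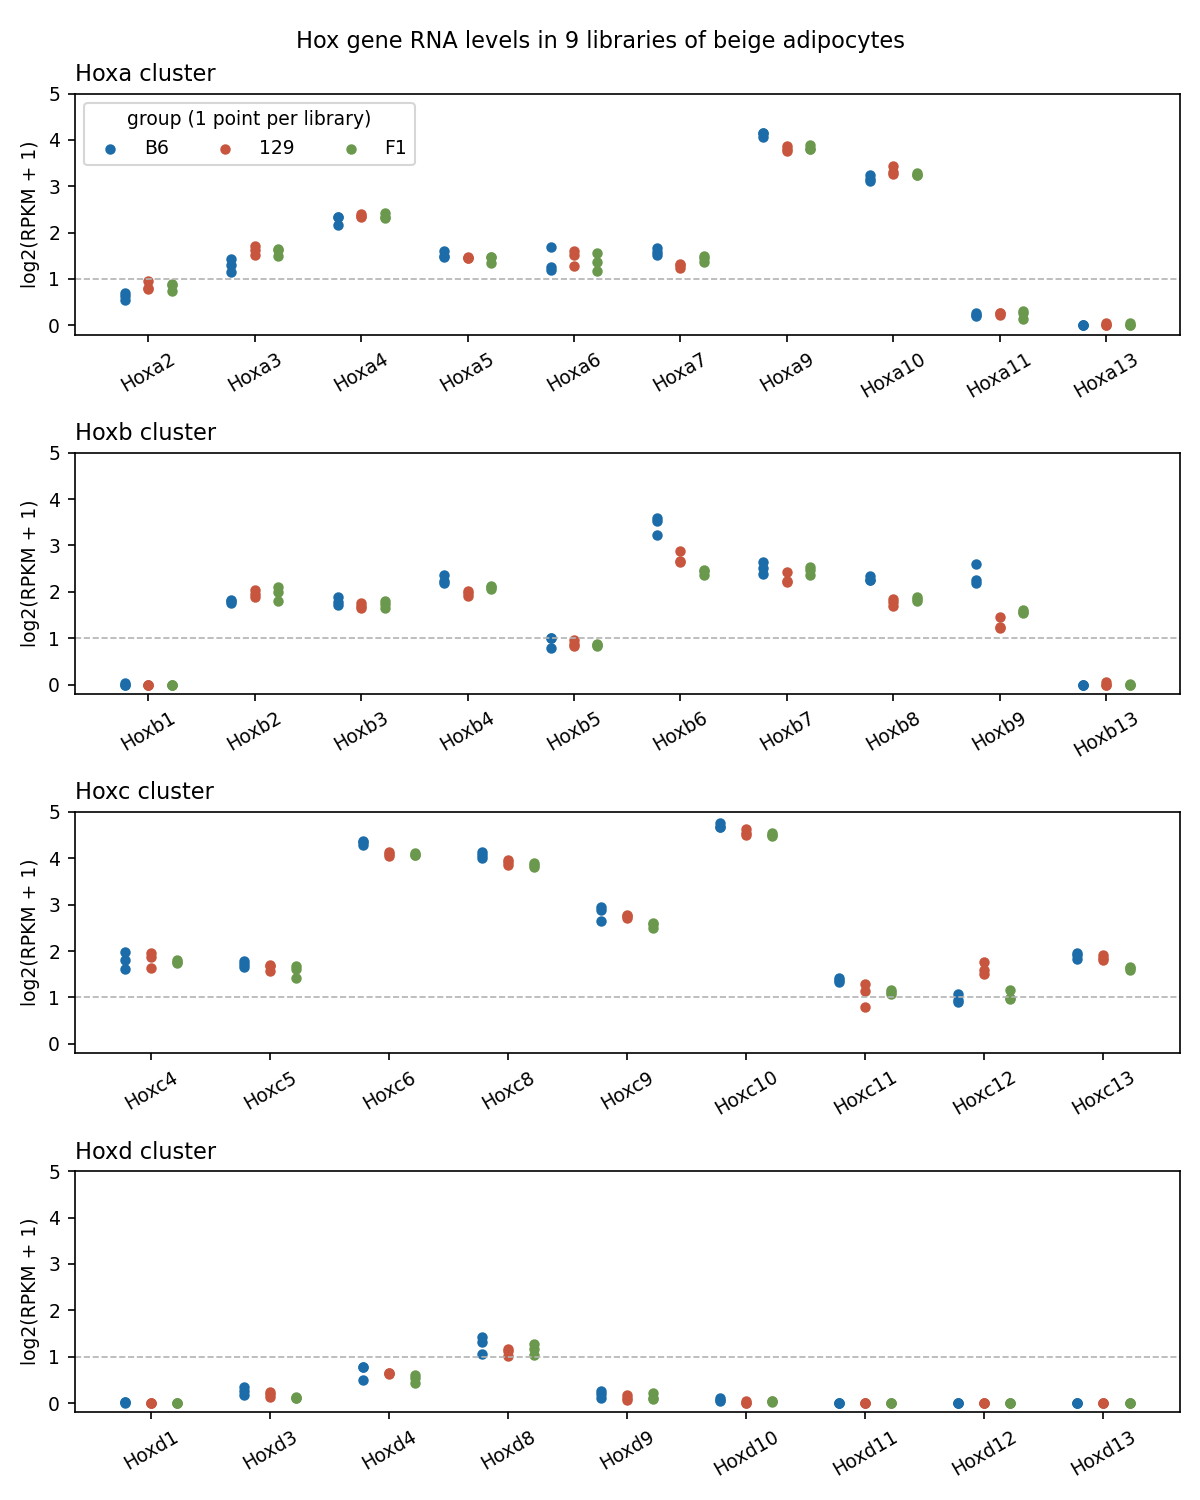
RNA level of 38 Hox genes as log2(RPKM + 1), 1 panel per cluster, genes ordered by paralog number, 1 point per library (3 per group) and a dashed line at an RPKM of 1. Hoxc6, Hoxc8, Hoxc10 and Hoxa9 stand highest, Hoxd genes other than Hoxd8 and Hoxd4 lie near 0, and the B6 points of Hoxb6, Hoxb8 and Hoxb9 lie above those of 129 and F1.

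The first comparison asked how the 2 strains differ. Among the Hox genes, 129 libraries had less RNA of 4 Hoxb genes than B6 libraries, among them Hoxb9 at 0.357 of the B6 mean, Hoxb6 at 0.567 and Hoxb8 at 0.624, and more of 3 genes, led by Hoxc12 at 2.13 of the B6 mean. The genes with the highest levels, Hoxc10, Hoxc6, Hoxc8 and Hoxa9, were lower in 129 by smaller factors. Of the 39 genes, 25 reached an RPKM of 1 in 3 or more of the 9 libraries and were tested with limma on log2(RPKM + 1), with Benjamini-Hochberg adjustment over all 11542 genes tested. At an adjusted p under 0.05, 13 of the 25 tested Hox genes (52.0%) were called, against 37.5% of all genes tested: 3 higher in 129 (Hoxa3, Hoxa10 and Hoxc12, against 15.9% of all genes) and 10 lower (Hoxa7, Hoxa9, Hoxb4, Hoxb6, Hoxb8, Hoxb9, Hoxc6, Hoxc8, Hoxc10 and Hoxc11, against 21.7%). The 3 libraries of 1 strain did not overlap with those of the other for 14 of the 25, against 49.9% of all genes tested, with 129 below B6 for 10 of them, against 29.0%. The median log2 fold change of the tested Hox genes was -0.10, and that of all genes tested was -0.03. The direction was uneven by position: 1 anterior gene was called higher and 1 lower of 7 tested, 0 higher and 5 lower of 10 central genes, and 2 higher and 4 lower of 8 posterior genes. Of these calls, those of Hoxc8 (central) and of Hoxa10, Hoxc10 and Hoxc11 (posterior) ended in some alternatives. These counts describe the genes and were not tested against other genes.

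**Figure D2:**
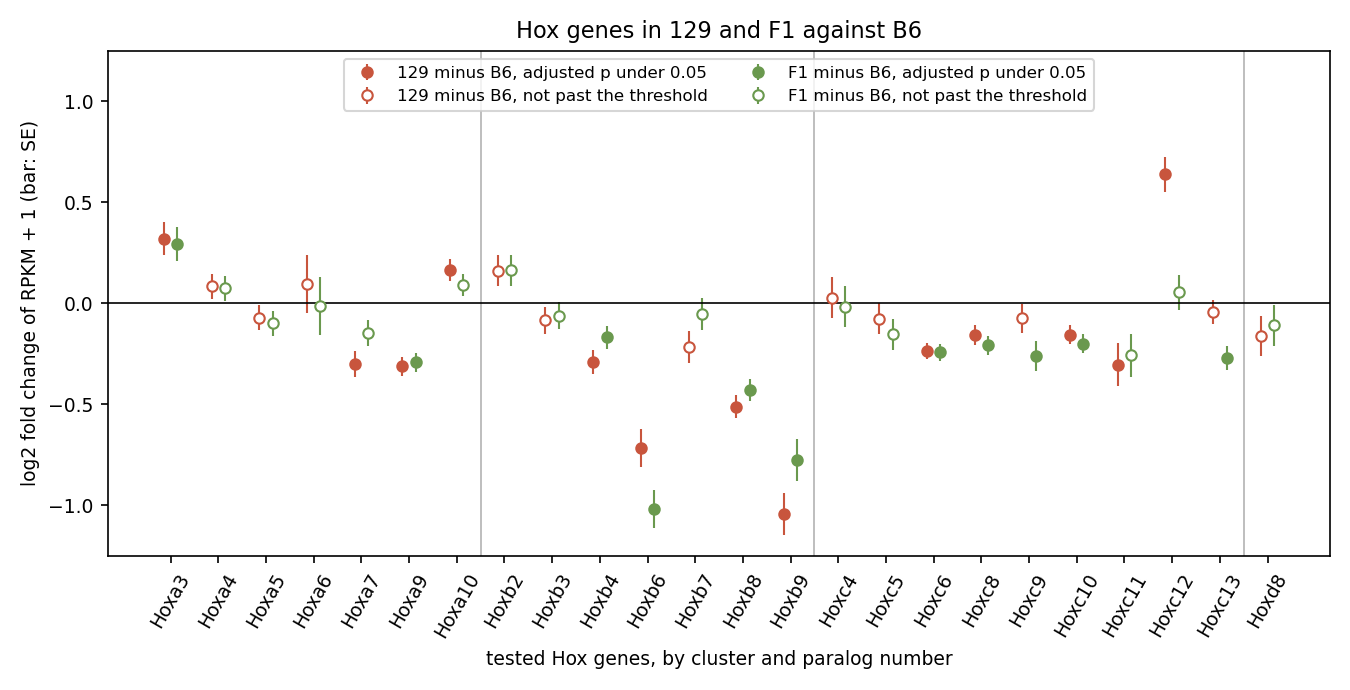
Log2 fold change of RPKM + 1 for 24 of the tested Hox genes in 129 (red) and F1 (green) against the same 3 B6 libraries, with the standard error from limma as bars; filled points passed an adjusted p of 0.05. Hoxb9 at -1.04 and Hoxb6 at -0.72 are the lowest points of 129 minus B6, and Hoxc12 at 0.64 is the highest.

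Hoxb9 is a posterior gene that patterns the rib cage in the embryo. Its exons lie within chr11:96132644-96137907 (mm9, plus strand), and its level was 3.78, 5.04 and 3.55 RPKM in B6, 1.73, 1.31 and 1.38 in 129 and 1.98, 2.03 and 1.90 in F1. All 129 and all F1 libraries lay below all B6 libraries, and the second B6 library was the highest of the 9. Group means were 4.12 ± 0.799 RPKM (SD, n = 3) in B6, 1.47 ± 0.224 in 129 and 1.97 ± 0.0691 in F1, from 88 to 293 reads per library. The log2 fold change of 129 minus B6 was -1.04 ± 0.10 (SE; limma, adjusted p = 1.92e-05).

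Hoxb8, its neighbour (chr11:96143219-96146639), a central gene known from blood progenitors and from grooming behaviour in mice, had 3.79, 4.03 and 3.75 RPKM in B6, 2.59, 2.42 and 2.22 in 129 and 2.60, 2.51 and 2.69 in F1. The groups did not overlap between B6 and either of the others, while 129 and F1 overlapped. Hoxb8 was lower in 129 (log2 fold change -0.51 ± 0.06, adjusted p = 4.57e-05 by limma).

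Hoxb8 was the only called gene of the central and posterior Hoxb genes with an entry in the RefSeq promoter sequences used here, which held 22 of the 39 Hox genes. Its 250 bases before the start site are shown because the posterior HOX and CDX proteins prefer the letters TTTATG. Capitals mark TTTATG on either strand (read as CATAAA on the other), which occurred 2 times.
Hoxb8 promoter (GRCm38.p6, chr11:96281655-96281904, plus strand): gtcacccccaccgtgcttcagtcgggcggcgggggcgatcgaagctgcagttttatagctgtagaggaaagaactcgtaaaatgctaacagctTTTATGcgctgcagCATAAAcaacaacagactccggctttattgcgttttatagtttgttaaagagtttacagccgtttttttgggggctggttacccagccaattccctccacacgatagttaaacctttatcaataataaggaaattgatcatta
TTTATG on either strand was present in 5 of the 22 Hox genes (22.7%: Hoxa7, Hoxb8, Hoxd3, Hoxd4 and Hoxd11) and in 12.4% of all 27025 genes with a promoter of this length. Of these 5, Hoxa7 and Hoxb8 were tested and both were lower in 129, and the other 3 were too low to test. This stands beside 10 of all 25 tested Hox genes called lower in 129 and 21.7% of all genes tested. A link between these letters and the levels was not tested. The letters TATAAA on either strand were present in 18.2% of the Hox genes and 14.3% of all genes, and TGATTTAT, the letters bound by HOX and PBX proteins together, in 0 of the 22 and 0.995% of all. TATAAA and TTTATG can share bases. The Hox promoters were rich in CpG, with a median of 12.5 CpG per 250 bases against 6 over all promoters. A match of letters is a description of the sequence only.

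Hoxb7 lies next in the cluster (chr11:96147960-96151477) and did not pass the test, at 4.70, 4.2 and 5.24 RPKM in B6, 3.64, 4.37 and 3.72 in 129 and 4.53, 4.81 and 4.16 in F1. Its groups overlapped in every pairing (129 minus B6 log2 fold change -0.22 ± 0.08, limma adjusted p = 0.0566). Hoxb6, the next gene (chr11:96160485-96162883), had 10.5, 8.34 and 11.1 RPKM in B6, 5.28, 6.35 and 5.36 in 129 and 4.57, 4.48 and 4.13 in F1. Every 129 library lay below every B6 library, and every F1 library lay below every 129 library. Hoxb6 was lower in 129 (log2 fold change -0.72 ± 0.09, adjusted p = 0.000164 by limma). Hoxb7 thus lies between 2 genes that were called and was not called itself in the main fit. It was called lower with sample weights, without B6 replicate 2 and without 129 replicate 2. The lowest adjusted p of these 3 alternatives was 0.0191 (limma). Within the same libraries the ratio of Hoxb9 to Hoxb7 RPKM averaged 0.894 in B6, 0.381 in 129 and 0.439 in F1, and that of Hoxb6 to Hoxb7 averaged 2.11, 1.45 and 0.978, with no overlap between B6 and the other groups for either ratio.

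Towards the anterior end, Hoxb5 had 0.720 to 1.02 RPKM, 35 to 80 reads, and was not tested. Hoxb4, known for expanding blood stem cells, had 3.58, 3.71 and 4.11 RPKM in B6, 2.75, 3.05 and 2.96 in 129 and 3.34, 3.33 and 3.14 in F1, with no overlap between any of the groups (129 minus B6 log2 fold change -0.29 ± 0.06, adjusted p = 0.00240 by limma). Hoxb3 had group means of 2.48 ± 0.221, 2.27 ± 0.127 and 2.33 ± 0.172 RPKM (SD, n = 3) in B6, 129 and F1, and Hoxb2, a hindbrain patterning gene, 2.48 ± 0.0667, 2.90 ± 0.187 and 2.91 ± 0.406. Neither passed the test (adjusted p = 0.338 and 0.120 by limma), although all 129 libraries lay above all B6 libraries for Hoxb2. Hoxb1 and Hoxb13, the ends of the cluster, had at most 1 read in any library. Summed over its 10 genes, the Hoxb cluster reached 31.5 to 33.7 RPKM in the B6 libraries, 21.5 to 23.9 in those of 129 and 21.5 to 23.6 in those of F1, so the 129 and F1 means were 0.693 and 0.704 of the B6 mean.

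2 non-coding rows between Hoxb13 and Hoxb9, Gm53 and Mir196a-1, were lower in 129 as well. Their 129 means were at 0.349 and 0.314 of the B6 means, beside 0.357 for Hoxb9. Gm53, a long non-coding RNA (chr11:96112974-96125798, mm9), had 8.59, 9.49 and 7.94 RPKM in B6, 3.06, 3.02 and 3.01 in 129 and 3.31, 4.13 and 4.13 in F1, with no overlap between any of the groups (129 minus B6 log2 fold change -1.26 ± 0.08, adjusted p = 6.29e-07 by limma). The Mir196a-1 row (chr11:96126478-96126579), which covers the hairpin of miR-196a, had 12.2, 15.4 and 10.6 RPKM in B6, 4.53, 4.13 and 3.31 in 129 and 5.19, 4.96 and 3.71 in F1, and all 129 and F1 libraries lay below all B6 libraries (log2 fold change -1.45 ± 0.14, adjusted p = 1.80e-05). That row rests on 8 to 32 reads per library over 102 bases. Reads on it in poly(A) libraries come from longer transcripts across the hairpin, and mature microRNAs were not measured. The other expressed cluster RNAs did not pass the test in this comparison: Mira, a non-coding RNA of Hoxa, had 3.37 to 5.11 RPKM over all libraries (adjusted p = 0.437), the Mir196b row of Hoxa 5.93 to 12.7 (adjusted p = 0.462) and the Mir615 row of Hoxc 0 to 3.21 (adjusted p = 0.531). Hotair, a non-coding RNA of the Hoxc cluster, stayed between 0.113 and 0.190 RPKM, and Hottip, beside Hoxa13, was listed at 0 in every library.

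**Figure D3:**
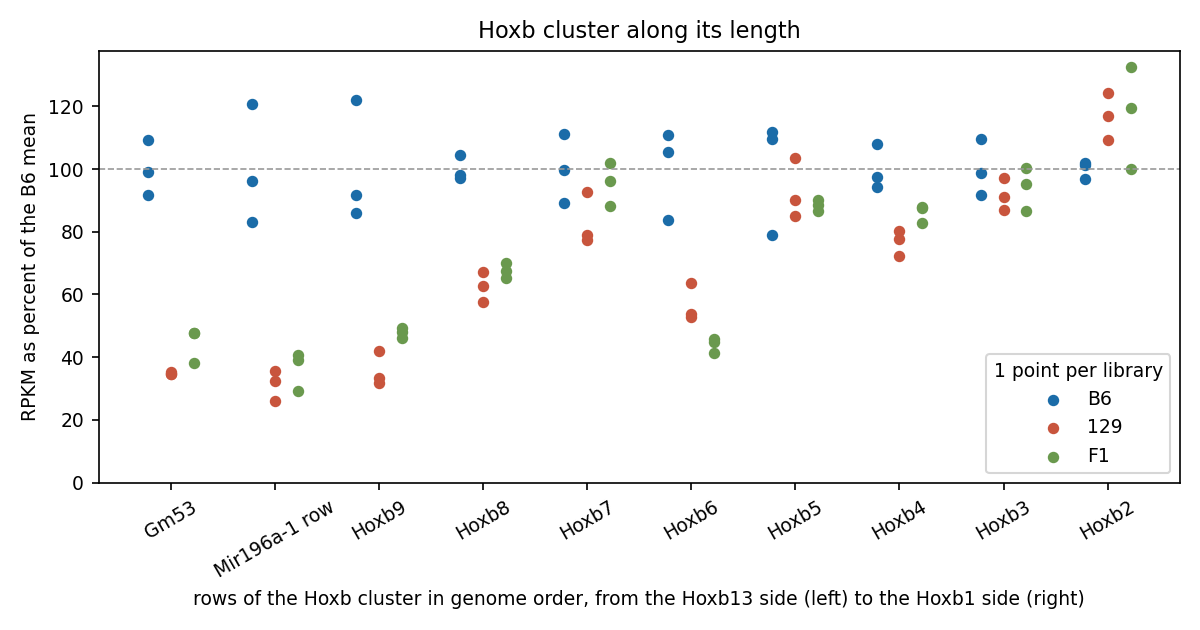
RPKM as a percent of the B6 mean for the rows of the Hoxb cluster in genome order, 1 point per library, from Gm53 and the Mir196a-1 row on the Hoxb13 side to Hoxb2 on the Hoxb1 side. The 129 and F1 points of Gm53, Mir196a-1, Hoxb9, Hoxb8, Hoxb6 and Hoxb4 lie below the B6 points, those of Hoxb7, Hoxb5 and Hoxb3 overlap with them, and the 129 points of Hoxb2 lie above.

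The 5p products of the miR-196 and miR-10 genes fall into 2 seed groups and are shown because their best known targets are Hox messenger RNAs. The other arms and miR-615 are not shown. Bases 2 to 8, the seed, are in capitals (RefSeq, GRCm38.p6). The miR-196 genes are Mir196b in Hoxa, Mir196a-1 in Hoxb and Mir196a-2 in Hoxc, and the miR-10 genes are Mir10a in Hoxb and Mir10b in Hoxd.
miR-196a-5p: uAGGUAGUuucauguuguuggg
miR-196b-5p: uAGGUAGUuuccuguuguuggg
miR-10a-5p: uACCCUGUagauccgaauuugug
miR-10b-5p: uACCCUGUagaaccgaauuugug
The nearly full match of miR-196a is in the Hoxb8 messenger RNA. In the GENCODE M21 transcript of Hoxb8, 21 of the 22 bases that start 418 bases after the stop codon pair with miR-196a-5p (capitals), and the next best Hox gene, Hoxd8, had 15.
Hoxb8 (GRCm38, chr11:96284888-96284909, plus strand): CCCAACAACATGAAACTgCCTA
The exact 7 letters opposite the miR-196 seed, ACTACCT on the transcript strand, were in the 3′ untranslated regions of 9 of the 39 Hox genes (23.1%; among them Hoxa4, Hoxa5, Hoxa7, Hoxa9, Hoxb1, Hoxb6, Hoxb7 and Hoxc8), against 6.74% of 10548 tested genes with such a region, whose median length was 1174 bases against 966 in the Hox genes. Hoxa7 held 4 of them and Hoxc8 2. The letters opposite the miR-10 seed, ACAGGGT, were in 4 (10.3%; among them Hoxa3, Hoxb3 and Hoxd1), against 14.5%. Windows of the called genes are shown (GRCm38) with the seed match in capitals, for Hoxa7 and Hoxc8 1 of several.
Hoxa7 (chr6:52215210-52215231, minus strand): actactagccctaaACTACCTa
Hoxa9 (chr6:52223900-52223921, minus strand): caaaaggaaagaaaACTACCTt
Hoxb6 (chr11:96301373-96301394, plus strand): tggaaggagcacatACTACCTa
Hoxc8 (chr15:102993733-102993754, plus strand): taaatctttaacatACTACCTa
Of the genes with the miR-196 letters, 4 were called in 129 minus B6, all lower (Hoxa7, Hoxa9, Hoxb6 and Hoxc8), while Hoxa4, Hoxa5 and Hoxb7 did not pass. This stands beside 10 of all 25 tested Hox genes called lower and 21.7% of all genes tested. The Hoxc8 call ended in 5 alternatives, 4 of them without 1 library (B6 or 129 replicate 2 or 3; limma adjusted p = 0.0604 to 0.0986). Hoxb8, with the nearly full match, was lower in 129 too. The Mir196a-1 row was lower in the same libraries as these genes. Whether the microRNA acts on any of these genes here was not tested.

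In the Hoxa cluster, 129 libraries had less Hoxa7 and Hoxa9 and more Hoxa3 and Hoxa10. Hoxa9, a posterior gene known from blood stem cells and leukaemia, had 16.8, 15.6 and 16.8 RPKM in B6, 13.5, 12.5 and 13 in 129 and 12.9, 13.8 and 13 in F1, and B6 lay above the other groups without overlap (129 minus B6 log2 fold change -0.31 ± 0.05, adjusted p = 0.000393 by limma). Hoxa7, a central gene, had 1.98, 2.20 and 1.85 RPKM in B6, 1.36, 1.48 and 1.49 in 129 and 1.76, 1.80 and 1.58 in F1, with F1 between the strains and no overlap between any of the groups (129 minus B6 -0.30 ± 0.06, adjusted p = 0.00417). Hoxa3, needed for thymus and parathyroid development, had 1.46, 1.71 and 1.23 RPKM in B6, 2.10, 2.25 and 1.86 in 129 and 1.82, 2.07 and 2.14 in F1, with all 129 and all F1 libraries above all B6 libraries (129 minus B6 0.32 ± 0.08, adjusted p = 0.0118). Hoxa3 shares some exon sequence with the row 2700086A05Rik, which had at most 1.07 RPKM. Hoxa10, known from the uterus and the lumbar spine, had 7.60, 7.92 and 8.40 RPKM in B6, 9.78, 8.55 and 8.89 in 129 and 8.41, 8.75 and 8.47 in F1, so the strains did not overlap but were close (129 minus B6 0.17 ± 0.05, adjusted p = 0.0349). The Hoxa10 call ended when B6 replicate 1 or 2 or 129 replicate 1 or 3 was left out (adjusted p = 0.061 to 0.126 by limma), and without a filter, with the replicate block and with only the groups compared (0.0535 to 0.061).

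Hoxa4, Hoxa5 and Hoxa6 did not pass in any comparison. Hoxa4 had group means of 3.87 ± 0.362 RPKM (SD, n = 3) in B6, 4.16 ± 0.149 in 129 and 4.12 ± 0.196 in F1, and Hoxa5, a gene of lung and fat development, 1.89 ± 0.144, 1.75 ± 0.0401 and 1.70 ± 0.122. Hoxa6, a central gene, had 1.26 to 2.24 RPKM, with libraries of all groups mixed along this range. Hoxa2, a gene of the second branchial arch, had 0.615, 0.471 and 0.544 RPKM in B6, 0.758, 0.732 and 0.950 in 129 and 0.681, 0.823 and 0.864 in F1, from 16 to 78 reads. It was too low to test, and all 129 and all F1 libraries lay above all B6 libraries. Hoxa11, a gene of the forearm and uterus, had at most 0.235 RPKM and shares exon sequence with its antisense row Hoxa11os, which cannot be told apart unless strand was used in counting. Hoxa13, a gene of the digits, had at most 2 reads in any library. The summed level of the Hoxa cluster was 37.3 to 37.8 RPKM in the B6 libraries, 35.1 to 36.4 in those of 129 and 34.4 to 36.8 in those of F1, a mean of 0.951 of B6 in 129.

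The Hoxc cluster took the largest share of Hox RNA, and all 9 of its genes were tested. Its abundant genes were somewhat lower in 129. Hoxc6, a central gene of the thoracic region, had 19.3, 18.4 and 19.7 RPKM in B6, 15.7, 16.5 and 16.2 in 129 and 16.3, 15.9 and 15.8 in F1, with B6 above both other groups (129 minus B6 log2 fold change -0.24 ± 0.04, adjusted p = 0.000935 by limma). Hoxc8, a central gene named as a target of miR-196a in studies of white fat browning, had 15.1, 16.5 and 15.8 RPKM in B6, 14.7, 13.4 and 14.1 in 129 and 14, 13 and 13.5 in F1 (129 minus B6 -0.16 ± 0.05, adjusted p = 0.0257), and Hoxc10, reported to restrain browning of subcutaneous fat, was given above (129 minus B6 -0.16 ± 0.05, adjusted p = 0.0210). Neither overlapped between the strains, but both calls ended when 1 of several libraries was left out, for Hoxc8 B6 replicate 2 or 3 or 129 replicate 2 or 3 (adjusted p = 0.0604 to 0.0986) and for Hoxc10 B6 replicate 2 or 129 replicate 2 or 3 (adjusted p = 0.0611 to 0.0859). Both also ended when the libraries were rescaled to their median ratios (adjusted p = 0.0803 and 0.067).

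Hoxc12, a posterior gene at the far end of the cluster (chr15:102767284-102768948, mm9), went the other way. Its level was 0.878, 1.12 and 0.925 RPKM in B6, 1.84, 2.37 and 2.0 in 129 and 0.956, 1.22 and 0.968 in F1, from 18 to 57 reads per library. All 129 libraries lay above all others, and B6 and F1 overlapped. The log2 fold change of 129 minus B6 was 0.64 ± 0.09, adjusted p = 0.000178 (limma). Its neighbour Hoxc13, known from hair follicles, had 2.79, 2.56 and 2.87 RPKM in B6, 2.80, 2.60 and 2.48 in 129 and 2.11, 2.01 and 2.17 in F1, and did not pass between the strains (adjusted p = 0.586). The ratio of Hoxc12 to Hoxc13 RPKM averaged 0.358 in B6, 0.793 in 129 and 0.502 in F1, with no overlap between any of the groups. Hoxc11 had 1.53, 1.66 and 1.58 RPKM in B6, 0.735, 1.19 and 1.43 in 129 and 1.24, 1.10 and 1.15 in F1, from 16 to 54 reads. B6 lay above both other groups, while the 129 libraries ranged widely (129 minus B6 -0.30 ± 0.11, adjusted p = 0.0439). That call ended in 8 of the 9 fits that left out 1 library, all but the one without 129 replicate 3 (adjusted p = 0.0549 to 0.112), and in 6 of the other settings (0.0514 to 0.0809).

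Of the remaining Hoxc genes, Hoxc9, a posterior gene of the trunk, had 5.26, 6.42 and 6.70 RPKM in B6, 5.87, 5.80 and 5.54 in 129 and 4.68, 4.98 and 5.11 in F1, and the strains overlapped (adjusted p = 0.452 by limma). Hoxc4 had group means of 2.48 ± 0.443 RPKM (SD, n = 3) in B6, 2.54 ± 0.403 in 129 and 2.42 ± 0.0665 in F1, and Hoxc5 2.32 ± 0.154, 2.14 ± 0.140 and 1.99 ± 0.277. Libraries of all groups overlapped for both. Summed over the cluster, the level was 74.3 to 78.4 RPKM in the B6 libraries, 68.2 to 70.1 in those of 129 and 64.3 to 65.9 in those of F1, and the 3 groups did not overlap.

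The Hoxd cluster was nearly silent. Hoxd8, a central gene, was the single one tested, at 1.07, 1.69 and 1.48 RPKM in B6, 1.03, 1.17 and 1.23 in 129 and 1.24, 1.04 and 1.40 in F1, and it did not pass in any comparison (129 minus B6 adjusted p = 0.235 by limma). Hoxd4 had 0.354 to 0.716 RPKM, Hoxd3 0.0755 to 0.269, Hoxd9 0.0502 to 0.194 and Hoxd10 at most 0.0803. Hoxd1 had at most 1 read in any library. Hoxd11, Hoxd12 and Hoxd13, the genes of the distal limb, were listed at 0 in all 9 libraries. The posterior genes of the Hoxc cluster were thus expressed down to Hoxc13, while Hoxa13, Hoxb13 and Hoxd13 were at 0 to 2 reads.

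**Figure D4:**
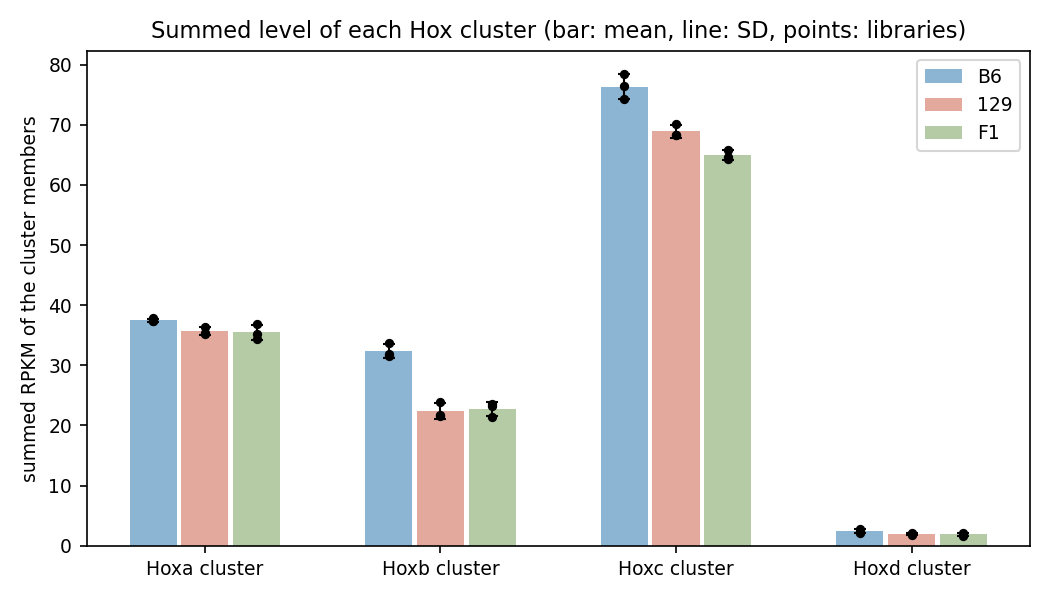
Summed RPKM of each Hox cluster by group (bar: mean; line: SD; points: 3 libraries). Before any rescaling, B6 lies above 129 and F1 in every cluster without overlap, by the widest ratio in Hoxb (129 mean at 0.693 of B6). The ratio was 0.951 in Hoxa, 0.902 in Hoxc and 0.801 in the barely expressed Hoxd. The factors for rescaling to median ratios were also highest in B6. They were 1.018 or more there, at most 0.998 for any 129 library and at most 0.9865 for any F1 library. Divided by these factors, the Hoxa sums of B6 overlapped with those of 129 and F1. The Hoxd sums of B6 then overlapped with those of F1 but not with those of 129.

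The second comparison set F1 against the same 3 B6 libraries, so it is not independent of the first, and values are given side by side. In F1, 11 of the 25 tested Hox genes (44.0%) were called, against 31.2% of all genes tested: Hoxa3 higher (against 11%) and 10 lower (against 20.2%), namely Hoxa9, Hoxb4, Hoxb6, Hoxb8, Hoxb9, Hoxc6, Hoxc8, Hoxc9, Hoxc10 and Hoxc13. Libraries of F1 and B6 did not overlap for 15, against 44.2%, with F1 below B6 for 13 of them, against 28.2%. The median log2 fold change was -0.15 over the tested Hox genes and -0.04 over all genes tested. Hoxb6 was at 0.440 of the B6 mean in F1 and 0.567 in 129, with an F1 minus B6 log2 fold change of -1.02 ± 0.09, adjusted p = 3.30e-05 (limma). Hoxb9 was at 0.478 in F1 and 0.357 in 129 (F1 minus B6 -0.78 ± 0.10, adjusted p = 0.000302), and Hoxb8 at 0.675 and 0.624 (-0.43 ± 0.06, adjusted p = 0.000294). Gm53 was at 0.444 and 0.349 (-1.0 ± 0.08, adjusted p = 1.12e-05) and the Mir196a-1 row at 0.363 and 0.314 (-1.28 ± 0.14, adjusted p = 9.65e-05). The RNAs that were lowest in 129 were therefore low in F1 as well.

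Smaller differences between F1 and B6 were those of Hoxa9 (log2 fold change -0.29 ± 0.05, adjusted p = 0.00106 by limma), Hoxc6 (-0.24 ± 0.04, adjusted p = 0.00122), Hoxc8 (-0.21 ± 0.05, adjusted p = 0.00843), Hoxc10 (-0.20 ± 0.05, adjusted p = 0.00768) and Hoxc13 (-0.27 ± 0.06, adjusted p = 0.00529). They passed in every alternative that tested them, as did Hoxb6, Hoxb8 and Hoxb9. Hoxa3 at 0.29 ± 0.08 (adjusted p = 0.0221) lost its call without B6 replicate 1 or 3 or F1 replicate 2 or 3 (adjusted p = 0.0574 to 0.0774). Hoxc9 at -0.26 ± 0.07 (adjusted p = 0.0197) lost it without B6 replicate 2 or 3 or F1 replicate 1 (0.0533 to 0.0705), and with rescaling to median ratios or sample weights (0.0518 to 0.105). Hoxb4 at -0.17 ± 0.06 (adjusted p = 0.0475) lost it without any library other than 129 replicate 1 (0.051 to 0.163), and in 7 other settings (0.0523 to 0.136). Hoxc12, the gene that was higher in 129, had an F1 mean of 1.05 ± 0.150 RPKM beside 0.973 ± 0.126 in B6 (SD, n = 3; adjusted p = 0.670).

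Against the 129 libraries, few Hox genes passed: 3 of 25 (12%), against 27.7% of all genes tested, all lower in F1 (against 15.7%). These were Hoxc12 (log2 fold change -0.58 ± 0.09, adjusted p = 0.000667 by limma), Hoxc13 (-0.23 ± 0.06, adjusted p = 0.0148) and Hoxb6 (-0.30 ± 0.09, adjusted p = 0.0369). Libraries did not overlap for 7 of the 25, against 44.5%. Hoxc12 passed in every alternative that tested it, Hoxc13 lost its call without 129 replicate 1 or F1 replicate 2 (adjusted p = 0.0528 to 0.0606), and Hoxb6 lost it when any 129 or F1 library was left out (0.0538 to 0.132), without a filter and with the replicate block (0.0636 to 0.0852). Without 129 replicate 1 or F1 replicate 2, 1 Hox gene was called in all. Hoxb9 was higher in all F1 libraries than in all 129 libraries but did not pass (0.27 ± 0.10, adjusted p = 0.0780). Of the non-coding rows, Gm53 was higher in F1 than in 129 (0.26 ± 0.08, adjusted p = 0.0285), a call that ended without any 1 of the 129 libraries or F1 replicate 2 or 3 (0.0684 to 0.101) and in 2 other settings (0.0656 to 0.0973). Mira was also higher (0.30 ± 0.09, adjusted p = 0.0384), and its call ended without 129 replicate 1 or 2 or F1 replicate 1 or 3 (0.103 to 0.121) and in 4 other settings (0.0509 to 0.0887).

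The last comparison set F1 against the mid-parent value, which averages the log2 levels of both strains, and used all libraries of the other comparisons again. Of the 25 tested Hox genes, 9 (36.0%) were called, against 23.2% of all genes tested, all lower in F1 (against 14.8%) and 0 higher (against 8.35%): Hoxa9, Hoxb6, Hoxb8, Hoxc6, Hoxc8, Hoxc9, Hoxc10, Hoxc12 and Hoxc13. The 2 that passed in every alternative were Hoxb6 (log2 difference -0.66 ± 0.08, adjusted p = 0.000403 by limma) and Hoxc13 (-0.25 ± 0.05, adjusted p = 0.00559), both of which lay below both parents in every library. The other 7 lay closer to the threshold, and the count fell to 3 when the libraries were rescaled to their median ratios and to between 2 and 7 when 1 library was left out, the lowest without F1 replicate 3. Without a single library, the count was 4 (129 replicate 1), 5 (129 replicate 2), 3 (F1 replicate 1), 4 (F1 replicate 2) and 2 (F1 replicate 3), and 6 or 7 without any of the others. Hoxb9 did not pass (-0.25 ± 0.09, adjusted p = 0.0634). Gm53 (-0.37 ± 0.07, adjusted p = 0.00359) and the Mir196a-1 row (-0.56 ± 0.12, adjusted p = 0.00850) were below the mid-parent value in every alternative.

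The mid-parent value on the log scale lies below the plain mean of the parental RPKM, so both are given for the main genes. The F1 mean over the plain mean of the parents was 0.562 for Hoxb6, 0.831 for Hoxb8, 0.704 for Hoxb9, 0.688 for Hoxc12, 0.782 for Hoxc13, 0.659 for Gm53 and 0.553 for the Mir196a-1 row. All were under 1. By group means, F1 was below both parents for 10 of the 25 tested Hox genes (40.0%, against 36.0% of all genes tested), above both for 2, among them Hoxb2 (8.0%, against 22.5%), and between them for 13 (52.0%, against 41.4%). F1 means of Hoxb9, Hoxb8 and Gm53 lay between the parents and nearer to 129, and the F1 mean of Hoxc12 lay between them and nearer to B6. Allele-specific reads were not analysed here.

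The genes around the clusters were measured in the same libraries. Within 500 kb of the outermost Hox genes lay 46 protein-coding genes, of which 33 were tested. In 129 minus B6, 3 were called higher and 5 lower, beside the background of 37.5% given above. Next to Hoxb13, Ttll6 and Calcoco2 were at or near 0, and the nearest expressed gene, Atp5g1 (a subunit gene of ATP synthase, 118667 bases away), had 228, 205 and 221 RPKM in B6, 166, 172 and 179 in 129 and 205, 164 and 165 in F1 and was lower in 129 (-0.33 ± 0.08, adjusted p = 0.00852 by limma). On the Hoxb1 side Skap1 was at or near 0, and the nearest expressed gene, Snx11 (a sorting nexin, 399296 bases away), had 8.58, 8.49 and 9.71 RPKM in B6, 7.23, 7.29 and 6.65 in 129 and 6.44, 7.22 and 6.74 in F1 and was lower as well (-0.30 ± 0.06, adjusted p = 0.00299). For both genes the strains did not overlap. Of the 11 tested genes in the flanks of Hoxb, 2 were higher and 2 lower, against 15.9% and 21.7% of all genes tested.

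Beside the other clusters the nearest expressed neighbours did not pass between the strains: Skap2 and Hibadh at Hoxa (adjusted p = 0.0914 and 0.0585 by limma), Calcoco1 and Smug1 at Hoxc (0.108 and 0.923), and Lnp and Mtx2 at Hoxd (0.0897 and 0.994). Farther out, genes in the flanks of Hoxc did pass. Of 17 tested there, 1 was higher and 3 lower in 129, against 15.9% and 21.7% of all genes tested. In the flanks of Hoxa and Hoxd, 0 of 3 and 0 of 2 tested genes were called. Evx1 and Evx2, homeobox genes next to Hoxa13 and Hoxd13, were at or near 0 in all libraries.

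Among the TALE partners of the Hox proteins, 8 of 9 were tested and 2 were called in 129 minus B6, against 37.5% of all genes tested: Pknox2 was higher, at 4.35, 4.09 and 3.83 RPKM in B6, 4.97, 5.05 and 4.87 in 129 and 3.81, 3.70 and 3.67 in F1 (log2 fold change 0.23 ± 0.05, adjusted p = 0.00425 by limma), and Meis3 was lower, at 7.69, 6.62 and 6.54 RPKM in B6, 5.67, 6.11 and 6.03 in 129 and 5.37, 5.89 and 5.05 in F1 (-0.19 ± 0.07, adjusted p = 0.0437). The Meis3 call ended without B6 replicate 1, F1 replicate 1 or any 129 library (adjusted p = 0.0542 to 0.165) and in 5 other settings (0.0545 to 0.0801). Pbx2 did not pass (adjusted p = 0.123). Of the Polycomb genes, which keep silent Hox genes off, 22 of 23 were tested, and 3 were higher in 129 and 0 lower (against 15.9% and 21.7% of all genes). They were Cbx2, at 1.10, 1.30 and 1.18 RPKM in B6, 1.85, 1.72 and 1.73 in 129 and 1.23, 1.24 and 1.18 in F1 (0.33 ± 0.06, adjusted p = 0.00126), Cbx6 (0.30 ± 0.05, adjusted p = 0.000592) and Rbbp7 (0.13 ± 0.04, adjusted p = 0.0318). The first 2 encode chromodomain subunits of Polycomb complex 1 and the third a histone-binding subunit of complex 2. Rbbp7 lost its call without B6 replicate 1 or 3 or 129 replicate 2 or 3 (0.0602 to 0.127) and with the replicate block (0.051), and Jarid2 did not pass (adjusted p = 0.147). All 14 Trithorax and activating factors were tested, with 2 higher and 3 lower, against the same shares. Kdm6a, a demethylase that removes the Polycomb mark (-0.21 ± 0.05, adjusted p = 0.00810), Dot1l, a histone methyltransferase (-0.23 ± 0.06, adjusted p = 0.0104), and Ash2l, a subunit of the H3K4 methyltransferases (-0.18 ± 0.04, adjusted p = 0.00913), were lower. Wdr5, of the same complexes, was higher (0.13 ± 0.04, adjusted p = 0.0365), a call that ended without B6 replicate 1 or 3, 129 replicate 1 or 3 or F1 replicate 2 (0.0524 to 0.128) and in 3 other settings (0.0521 to 0.0595).

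Retinoic acid induces Hox genes in embryos, and 2 enzymes that make it differed between the strains by larger log2 fold changes than any tested Hox gene. Of 15 listed genes tied to Hox induction, which include the degrading enzymes Cyp26a1 and Cyp26b1, 10 were tested. In 129, 4 were higher, among them Cyp26b1, and 2 lower, against 15.9% and 21.7% of all genes tested. Aldh1a2, a retinoic acid synthesising enzyme, had 3.55, 4.32 and 3.46 RPKM in B6, 17.5, 15.1 and 17.5 in 129 and 5.41, 5.81 and 5.28 in F1 (1.89 ± 0.08, adjusted p = 2.75e-08 by limma). Aldh1a3, an enzyme of the same step, went the other way, at 3.45, 4.34 and 2.76 RPKM in B6, 0.371, 0.310 and 0.174 in 129 and 0.749, 0.738 and 0.767 in F1 (-1.80 ± 0.11, adjusted p = 7.33e-07). Both genes separated all 3 groups without overlap. Cyp26b1, which degrades retinoic acid, had 3.79, 4.40 and 3.62 RPKM in B6, 6.99, 7.32 and 6.88 in 129 and 8.86, 8.75 and 9.13 in F1 and was higher in 129 (0.71 ± 0.06, adjusted p = 5.87e-06) and in F1 (1.01 ± 0.06, adjusted p = 1.58e-06 for F1 minus B6). Aldh1a1, the most abundant of these synthesising enzymes here, was lower in 129 (-0.38 ± 0.06, adjusted p = 0.000707).

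Of 32 positional homeobox and T-box genes outside the clusters, 17 were tested, with 4 higher and 6 lower in 129, against 15.9% and 21.7% of all genes tested. Tbx5, a forelimb and heart gene, had 2.27, 2.76 and 2.32 RPKM in B6, 1.35, 1.31 and 1.31 in 129 and 1.67, 1.94 and 1.83 in F1 (-0.57 ± 0.07, adjusted p = 8.38e-05 by limma), and Tbx18, a gene of mesenchymal and pericyte lineages, 4.86, 5.35 and 4.54 RPKM in B6, 3.15, 3.12 and 3.12 in 129 and 3.80, 3.95 and 3.94 in F1 (-0.52 ± 0.06, adjusted p = 3.65e-05). For both, F1 lay between the strains and no groups overlapped. Meox2, a mesodermal homeobox gene, had 1.66, 1.09 and 1.31 RPKM in B6, 2.68, 2.30 and 2.62 in 129 and 1.20, 1.03 and 1.06 in F1 (0.59 ± 0.09, adjusted p = 0.000400) and Lhx8, a LIM homeobox gene, 0.769, 0.925 and 0.845 RPKM in B6, 1.53, 1.74 and 1.81 in 129 and 1.21, 0.985 and 1.16 in F1 (0.54 ± 0.07, adjusted p = 0.000152). Meox2 was thus high in 129 alone, with B6 and F1 overlapping, as was the case for Hoxc12.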

How the data were processed

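Poly(A) RNA of 9 libraries (TruSeq Stranded mRNA kit, per the labels) was sequenced. The submitters' processing notes name STAR, an aligner, and the build mm9. The authors deposited RPKM with 1 value per gene and library. The counter, annotation, strand setting, versions and filters were not given in the sources. RPKM times exon length kept steps of 1 read, so depth was recovered from them (100% of values whole within 0.1 read). Genes reaching an RPKM of 1 in 3 or more of 9 libraries were tested as log2(RPKM + 1), a scale on which changes of low genes look smaller, with limma 3.58.1 (R 4.3.3; 1 mean per group, mean-variance trend, all 9 libraries in 1 fit, two-sided, Benjamini-Hochberg over 11542 genes, threshold 0.05). An exact permutation test of 3 against 3 libraries cannot go below 0.1. The procedure was tested on simulated data. Levels are RPKM, errors of means are SD, errors of log2 fold changes SE.

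Members, gene lists and comparisons were chosen with earlier results of these data known. Values of 1 Hox gene and 1 partner gene are not reported here, and every other Hox gene is accounted for. From each other list up to 4 members with the smallest p in 129 minus B6 are named, from the flanks the nearest expressed gene on each side, and from the clusters every non-coding row that was tested. 2700086A05Rik, Hotair, Hottip, Evx1, Evx2, Ttll6, Calcoco2 and Skap1 are named outside this rule, after their values were seen. Coordinates of rows are those of mm9. MicroRNAs and promoters are from RefSeq (GRCm38.p6) and transcripts from GENCODE M21 (GRCm38), and no coordinates were converted. The labels do not say whether same-numbered libraries of different groups belong together. Such libraries did not deviate together in every pair, which cannot settle whether the numbers pair libraries. The main fit did not use the numbers. Alternatives were 2 other pseudocounts, 3 other filters, rescaling to median ratios, sample weights, a replicate block, voom on recovered reads, fits of only the groups compared, and leaving out each library.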

Additional observations from a re-analysis of the deposited data

How the results depend on the processing

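No Hox gene called in any of the 4 comparisons changed direction in any alternative. In 129 minus B6, 9 of the 13 calls held in all alternatives that tested them (Hoxa3, Hoxa7, Hoxa9, Hoxb4, Hoxb6, Hoxb8, Hoxb9, Hoxc6 and Hoxc12). In F1 minus B6, 8 of 11 held, in F1 minus 129 1 of 3 (Hoxc12), and in F1 minus mid-parent 2 of 9 (Hoxb6 and Hoxc13). The number of Hox genes called in F1 minus 129, 3 as reported, was 1 with a filter at an RPKM of 3 and 5 with only the groups compared in the fit, and 1 to 4 without 1 library. With the filter at 3, Hoxc12 and Hoxc13 were no longer tested, as they reached at most 2.37 and 2.87 RPKM. In F1 minus mid-parent, 9 as reported, it was 5 without a filter, 3 after rescaling to median ratios and 2 to 7 without 1 library. Rescaling changes each library by one factor, between 0.979 and 1.03, lowest in F1. Leaving out 1 library gave 10 to 13 Hox genes in 129 minus B6 and 8 to 12 in F1 minus B6. The cause of the other differences was not tested.

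With the replicate number as a block, 12 Hox genes and 4267 genes in all were called in 129 minus B6, 10 and 3546 in F1 minus B6, 2 and 3066 in F1 minus 129, and 6 and 2587 in F1 minus mid-parent. Deviations of same-numbered libraries correlated between -0.19 and 0.22. Between B6 and 129 they correlated at 0.066, 0.12 and 0.22, beside -0.17 to 0.052 for differently numbered libraries of these groups.

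Among Hox genes that were not called, 3 of 12 in 129 minus B6, 5 of 14 in F1 minus B6, 10 of 22 in F1 minus 129 and 7 of 16 in F1 minus mid-parent changed sign in some alternative, all with a log2 fold change that rounds to 0.09 or less in size. Hoxc9 in 129 minus B6 was 0.014 (log2) with sample weights, the opposite sign. Some genes that were not called passed in at least 1 alternative. These were Hoxb7, Hoxc9 and Hoxd8 in 129 minus B6 and Hoxb2 and Hoxc11 in F1 minus B6. In F1 minus 129 they were Hoxb9 and Hoxc9, and in F1 minus mid-parent Hoxb9. At a threshold of any read, 31 Hox genes were detected in all libraries, at 10 reads 28 and at an RPKM of 1 23. Few reads limit Hoxc11, Hoxc12 and the Mir196a-1 row, with 8 to 57 reads per library.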
